A study of Mus musculus with 6 samples.

Results

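The genes described here encode the MYC and MAX network of transcription factors, namely Myc, Mycn, Max, Mxd1, Mxd3, Mxd4, Mxi1, Mga, Mnt and the MYC binding protein gene Mycbp. They are 10 of the 22315 genes with a current name on the array. Every probe whose gene name in the array design is one of these 10 was taken, which gave 13 of the 55681 different probes on the array. Of these, 12 probes of 9 genes passed the filter on low signals and were tested, and the Mxi1 probe did not. RNA came from 1676 cells, a mouse pre-B cell line of SLP-65-/- LAT-/- genotype, kept in all groups with excess IL-7, the growth factor that holds such cells at the pre-B stage. All groups had been transduced with retroviral vectors and selected with puromycin. The control group carried the empty vector, the miR-26a group a vector for hsa-miR-26a-2, and the sponge group a transcript that binds and sequesters miR-26 family members. Each group had 2 arrays, 1 from each of 2 experiments, which the methods call biological replicates, and no array of a scrambled sponge was analysed here. All cells derive from a single line, and the p-values measure only the spread between these 6 arrays.

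MYC and its relative MYCN bind DNA as dimers with MAX, recognize the E-box CACGTG and raise transcription of genes for ribosome production, nucleotide and polyamine synthesis and cell growth. MXD1, MXI1, MXD3, MXD4, MNT and MGA also pair with MAX at such sites, where MXD, MXI1 and MNT dimers recruit SIN3 and histone deacetylases and lower transcription. In early B cells, IL-7 and the pre-B cell receptor support proliferation, which depends on MYC, and MYC falls as cells leave the cycle.

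The mature miR-26 sequences are shown because the overexpressed miRNA and the endogenous miRNAs that a sponge can bind share a seed. Capitals mark the seed, bases 2 to 8 from the 5′ end, and the sequences are those of RefSeq for mouse (GRCm38.p6).
mmu-miR-26a-5p: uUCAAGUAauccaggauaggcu
mmu-miR-26b-5p: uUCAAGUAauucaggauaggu
The mouse genome holds the miR-26a sequence at chr9:119031811-119031832 and chr10:126995543-126995564 and the miR-26b sequence at chr1:74394324-74394344, all on the plus strand. The words TACTTGA and ACTTGAA, which pair with bases of this seed region, were sought on the transcript strand in the 60 bases of each probe. They were held by 532 of all 55681 probes (0.955%) and by 1 of the 13 network probes, that of Mxi1, whose 29 bases around the word ACTTGAA (capitals, mm9 chr19:53450269-53450297, plus strand) are shown here.
Mxi1: atacacataaaACTTGAActtgtatttag
A probe covers only a short stretch of a transcript, so these letters say nothing of sites elsewhere in it.

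CACGTG, the site that MYC, MXD and MNT dimers with MAX share, was sought in RefSeq promoters that reach from 250 bases before to 50 bases after a gene's start. The table holds promoters of 9 of the 10 genes, all but Myc, and 11 promoters in all. The word, which reads the same on both strands, stood in those of Mxd4, Mnt and Max and in no other, that is in 27.3% of the 11 promoters and in 7.15% of all 32851. The windows around it are shown with CACGTG in capitals (GRCm38.p6, 30 bases each, read on the gene's strand).
Mxd4: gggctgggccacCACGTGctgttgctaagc
Mnt: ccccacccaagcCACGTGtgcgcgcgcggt
Max: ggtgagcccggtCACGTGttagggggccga
These windows lie at chr5:34187912-34187941 on the minus strand for Mxd4, at chr11:74830789-74830818 on the plus strand for Mnt and at chr12:76962234-76962263 on the minus strand for Max. Counted from the start site, the word began at position -219 in Mxd4, -123 in Mnt and -3 in Max.

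Each array had 28823 to 29800 spots well above background and no saturated spot. The 2 arrays of a group correlated at 0.996 to 0.997 over the 20168 tested probes. All 8 pre-B markers were well above background on every array. Of 8 myeloid markers, 4 exceeded background on every array and 2 on none, with a summed processed signal of 58808 and 62053 in control, 58335 and 60051 in miR-26a and 58018 and 73981 in sponge cells, most of it from Csf3r. Of 8 T cell markers 4 were above background on all arrays and 2 on none, and the sum lay between 2330 and 2739. The probe of Lat, a gene that the line lacks by its genotype label, was above background on all 6 arrays with signals of 1065 to 1340, and since the deleted part is not given it does not check that label. For erythroid markers the sum was 64 to 87. The plasma cell markers summed to 7396 and 7966 in control, 6455 and 7313 in miR-26a and 8458 and 8471 in sponge cells. Among them Irf4 had signals of 2844 and 3110 in control, 1212 and 1414 in miR-26a and 2404 and 3531 in sponge cells. Xbp1 went the other way with miR-26a, with 4611 and 3798 in control, 5645 and 4562 in miR-26a and 5587 and 4381 in sponge cells. Prdm1 and Sdc1 lay between 201 and 294 on all arrays, and Tnfrsf17 was above background on none. The part of such cells in the results below was not tested, and in RNA of whole cultures fewer cells of a kind and less RNA per cell cannot be told apart.

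In miR-26a cells, 4 of the 12 tested network probes changed against control: Myc rose and both Mxd4 probes and 1 of the Mycbp probes fell. A probe was called changed at an adjusted p under 0.05 in limma, fitted over all 20168 tested probes with the experiment as a block, and 9.64% of all tested probes were called (4.5% higher and 5.14% lower). The median log2 change of the 12 probes was -0.002, and that of all tested probes was 0.01. The arrays of the groups did not overlap for 7 of the 12 probes, against 49.3% of all tested probes. All values below are log2 of the quantile-normalized processed signal, a measure that allows a probe to be compared between arrays but not with another probe.

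**Figure D1:**
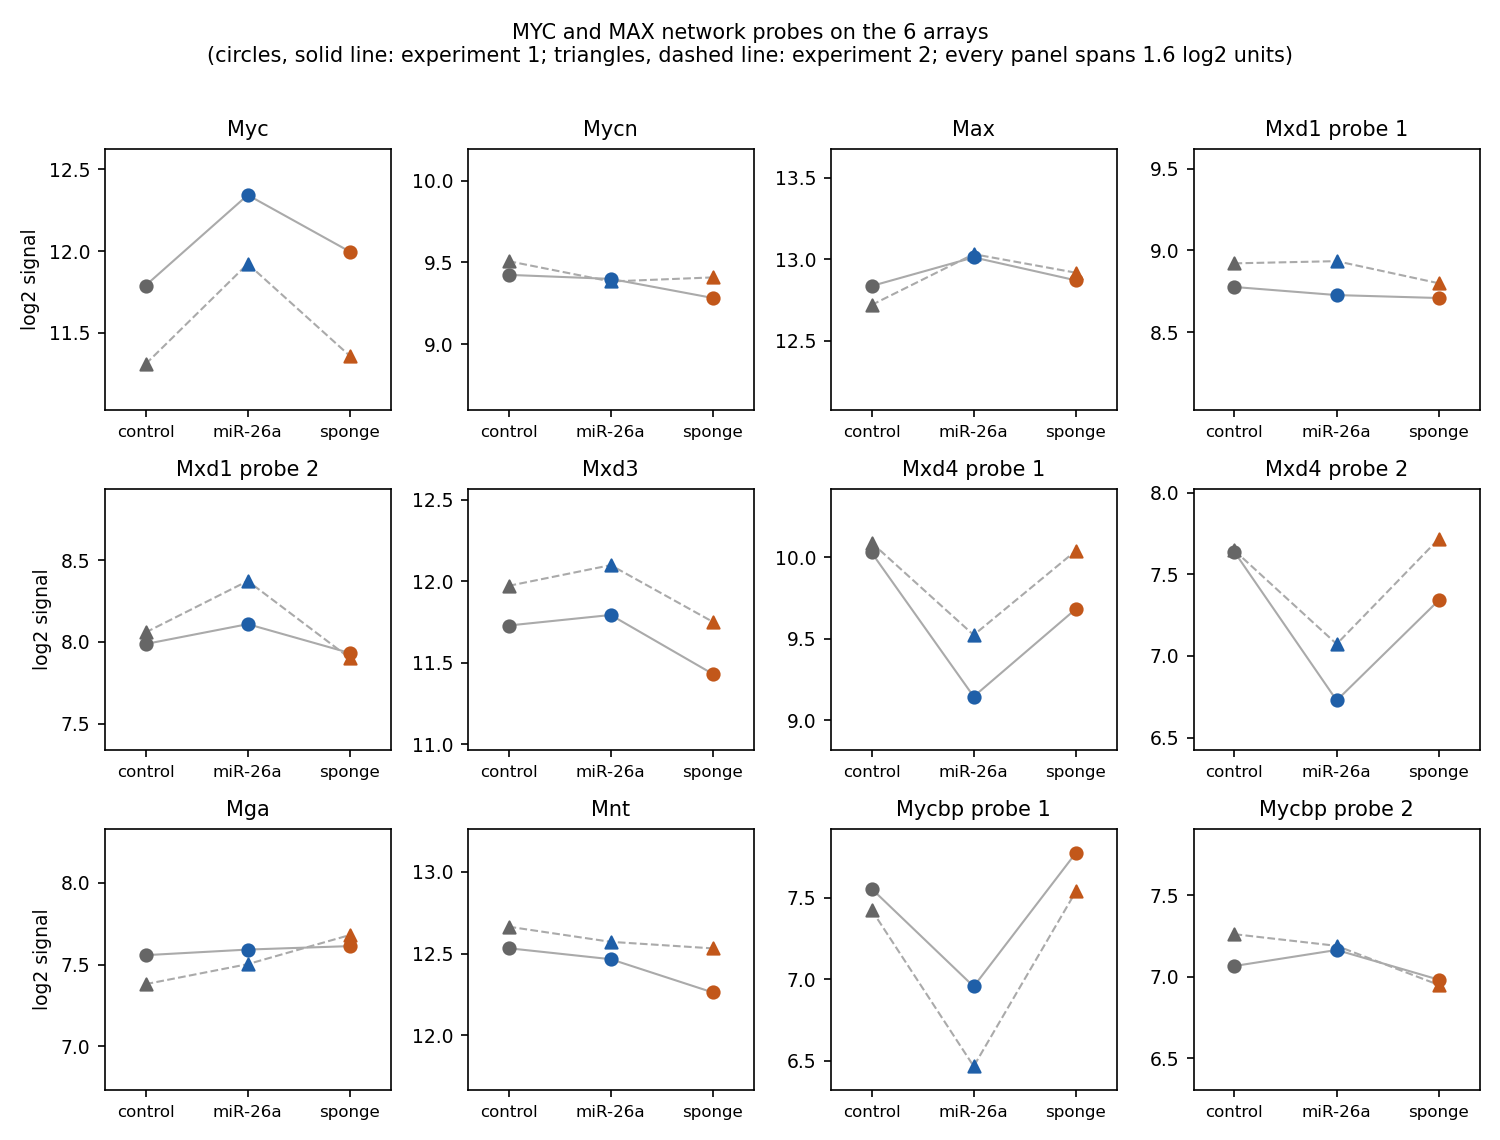
Log2 signal of each of the 12 tested probes (vertical axis, 1.6 log2 units in every panel) in the 3 groups (horizontal axis). Circles joined by a solid line are experiment 1 and triangles joined by a dashed line are experiment 2. The Myc line peaks at miR-26a in both experiments, and the lines of Mxd4 and of Mycbp probe 1 dip there, while those of Mycn, Mxd1 probe 1, Mga and Mnt stay close to level between control and miR-26a.

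Myc, the main MYC family member of proliferating pre-B cells, has 1 probe with 2 spots (mm9 chr15:61821417-61821476, plus strand). Its log2 signal was 11.79 and 11.31 on the control arrays of experiments 1 and 2, 12.34 and 11.92 on the miR-26a arrays and 12.00 and 11.36 on the sponge arrays. Experiment 1 was the higher of the 2 in each group, and both miR-26a arrays lay above both control arrays. The log2 change from control to miR-26a was 0.58 (SE 0.08, limma adjusted p = 0.0154), which is 1.50-fold, with 0.55 in experiment 1 and 0.61 in experiment 2. Of all tested probes, 1.38% had a change at least as high. The Myc call was lost without the block (limma adjusted p = 0.358), where 311 of all tested probes were called in place of 1944. It was also lost without either control array, where the control group held 1 array and fewer of all tested probes were called. The Myc change was 0.56 to 0.61 in these fits. The adjusted p of Myc was 0.256 when all 55681 probes entered the fit, a setting in which no probe of the array was called.

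Mycn, a close relative of Myc that some precursor cells use, is measured by a probe at mm9 chr12:12943193-12943252 (minus strand). It had log2 signals of 9.42 and 9.51 in control, 9.40 and 9.38 in miR-26a and 9.28 and 9.41 in sponge cells. All 6 arrays lay within a narrow range. The log2 change with miR-26a was -0.07 (95% interval -0.25 to 0.11, limma adjusted p = 0.569).

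MAX is the partner that MYC, MYCN, the MXD proteins, MXI1, MNT and MGA share at E-boxes. Its probe (mm9 chr12:78038272-78038331, minus strand) gave log2 signals of 12.84 and 12.72 in control, 13.01 and 13.03 in miR-26a and 12.87 and 12.92 in sponge cells. Both miR-26a arrays were above the other 4 arrays. The log2 change of 0.24 from control to miR-26a (95% interval 0.06 to 0.43) did not pass the adjustment (limma adjusted p = 0.106).

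Mxd4, a member of the MXD family that opposes MYC and is tied to cell cycle exit, was lower with miR-26a on both of its probes. The brighter, probe 1 (mm9 chr5:34519323-34519382, minus strand), had log2 signals of 10.03 and 10.09 in control, 9.15 and 9.52 in miR-26a and 9.68 and 10.04 in sponge cells. Both miR-26a arrays were below all other arrays, by more in experiment 1. The log2 change was -0.72 (SE 0.10, limma adjusted p = 0.0153), to 0.605 of the control signal, with -0.88 and -0.57 in the 2 experiments. Probe 2 (mm9 chr5:34519276-34519335) overlaps probe 1 by 13 of its 60 bases and reads the adjoining stretch. It had log2 signals of 7.64 and 7.65 in control, 6.73 and 7.07 in miR-26a and 7.34 and 7.72 in sponge cells, in the same order as probe 1 for the groups. Its log2 change was -0.74 (SE 0.11, limma adjusted p = 0.0181). For the Mxd4 probes the adjusted p was 0.109 and 0.101 without the block, 0.102 and 0.105 without control replicate 1 and 0.0548 and 0.0522 without control replicate 2.

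The other MXD genes and the 2 large relatives Mnt and Mga were not called between miR-26a and control. Mxd1, induced as many cell types differentiate, has 2 probes on the minus strand, probe 1 at mm9 chr6:86597190-86597249 and probe 2 at chr6:86599053-86599112. Probe 1 had log2 signals of 8.78 and 8.92 in control, 8.73 and 8.93 in miR-26a and 8.71 and 8.80 in sponge cells, and the groups overlapped. Probe 2 had 7.99 and 8.06 in control, 8.11 and 8.37 in miR-26a and 7.93 and 7.90 in sponge cells, with the miR-26a arrays above the rest. The log2 changes with miR-26a were -0.02 (limma adjusted p = 0.908) for probe 1 and 0.22 (adjusted p = 0.197) for probe 2, so the probes give no single direction for Mxd1.

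Mxd3 (mm9 chr13:55427000-55427059, minus strand), the MXD member known for its expression in dividing cells, had log2 signals of 11.73 and 11.97 in control, 11.79 and 12.10 in miR-26a and 11.43 and 11.75 in sponge cells. Experiment 2 was higher in every group, and the order sponge, control, miR-26a held within each experiment. The log2 change with miR-26a was 0.10 (95% interval -0.07 to 0.26, limma adjusted p = 0.428). The groups of miR-26a and control overlapped. Mnt (mm9 chr11:74658915-74658974, plus strand), a broadly expressed MYC antagonist, had log2 signals of 12.53 and 12.66 in control, 12.47 and 12.57 in miR-26a and 12.26 and 12.53 in sponge cells, and its change with miR-26a was -0.08 (95% interval -0.27 to 0.11). The miR-26a arrays overlapped with control for Mnt as well. Mga (mm9 chr2:119792479-119792538, plus strand), a very large MAX partner found in a Polycomb complex, had 7.56 and 7.38 in control, 7.59 and 7.50 in miR-26a and 7.61 and 7.68 in sponge cells. Its log2 change with miR-26a was 0.08 (95% interval -0.13 to 0.29).

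Mxi1, another MYC antagonist that recruits SIN3, has 1 probe (mm9 chr19:53450238-53450297, plus strand). The probe was not well above background on any array. Its processed signal was 2.44 and 2.48 in control, 2.36 and 2.44 in miR-26a and 5.24 and 7.35 in sponge cells, all below the minimum of 50 that was asked of tested probes, so it gives no fold change.

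Mycbp encodes a small protein that binds the amino-terminal part of MYC and enhances its activity on E-boxes. Its brighter probe (probe 1, mm9 chr4:123589107-123589166, plus strand) had log2 signals of 7.55 and 7.42 in control, 6.96 and 6.47 in miR-26a and 7.77 and 7.54 in sponge cells. Both miR-26a arrays were the lowest, by more in experiment 2. The log2 change from control was -0.78 (SE 0.10, limma adjusted p = 0.0138), to 0.583 of the control signal, with -0.60 and -0.96 in the 2 experiments. Probe 2 (mm9 chr4:123587324-123587383), which lies 1783 bases upstream and stands for another transcript in the array design, had log2 signals of 7.07 and 7.26 in control, 7.16 and 7.19 in miR-26a and 6.98 and 6.95 in sponge cells. The miR-26a arrays lay between the control arrays, and the log2 change was 0.01 (95% interval -0.19 to 0.22, limma adjusted p = 0.944). The fall of Mycbp was thus seen on 1 of its 2 probes. The adjusted p of probe 1 was 0.107 without the block, 0.0725 without control replicate 1 and 0.110 without control replicate 2, and its change was -0.52 with normexp background correction, where it was still called.

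**Figure D2:**
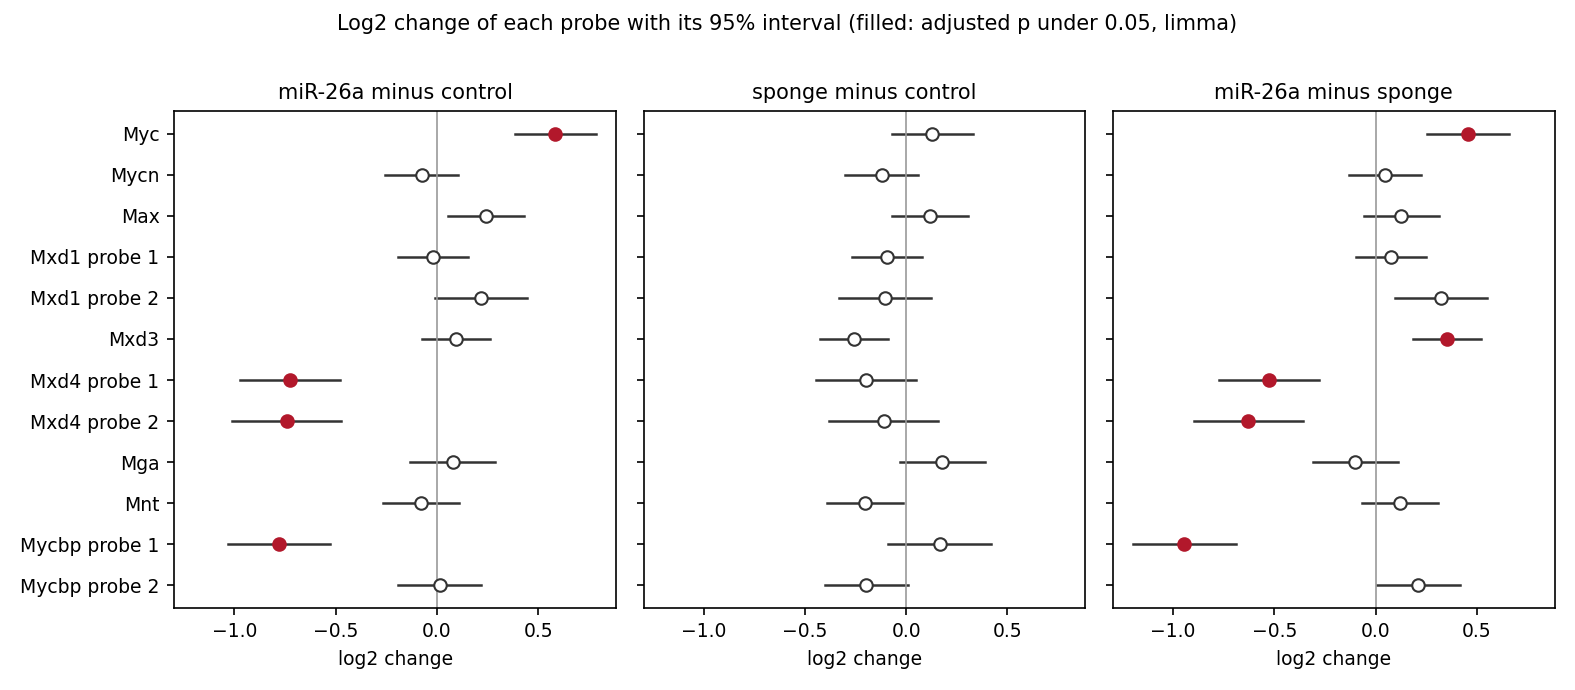
Log2 change (horizontal axis) of each of the 12 tested probes (vertical axis) with its 95% interval in the 3 contrasts. Filled points have a limma adjusted p under 0.05. With miR-26a against control Myc lies to the right of 0 at 0.58 and Mxd4 and Mycbp probe 1 to the left at -0.72 to -0.78, while no point is filled for the sponge against control.

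No network probe was called between sponge and control in limma, where 0.00992% of all tested probes (2 probes) were called. At an unadjusted p under 0.05 there were 2 of the 12, both with a negative change, against 16.1% of all tested probes (8.72% with a negative change). These were Mxd3, with a log2 change of -0.26 (limma adjusted p = 0.227), and Mnt, with -0.20 (adjusted p = 0.292). The changes of the 12 probes ran from -0.26 to 0.18 with a median of -0.109, and 11 of them had the same sign in both experiments. The arrays of sponge and control did not overlap for 6 of the 12, against 37.7% of all tested probes. The 95% intervals of all 12 lay between -0.45 and 0.43 on the log2 scale. For the genes called with miR-26a, the log2 changes with the sponge were 0.13 for Myc (95% interval -0.07 to 0.33), -0.20 and -0.11 for the Mxd4 probes and 0.17 for Mycbp probe 1 (95% interval -0.09 to 0.42). The 3 contrasts share arrays, so their changes are not independent of each other.

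Between the miR-26a and sponge groups, 5 of the 12 probes were called in limma, where 16.8% of all tested probes were (8.28% higher and 8.49% lower with miR-26a). At an unadjusted p under 0.05 there were 7 of the 12, against 34.6% of all tested probes. Of these 7, 4 were higher and 3 lower, against 18.7% and 15.9% of all tested probes. The arrays did not overlap for 8 of the 12, against 50.9% of all. Myc was higher with miR-26a by 0.46 on the log2 scale (SE 0.08, adjusted p = 0.0210) and Mxd3 by 0.35 (SE 0.07, adjusted p = 0.0250). The arrays of these groups overlapped for Myc, because experiment 1 of the sponge (12.00) was above experiment 2 of miR-26a (11.92), and the difference was seen within each experiment (0.35 and 0.56). For Mxd3 the difference was 0.36 and 0.35 in the 2 experiments. Mxd4 was lower with miR-26a by a log2 change of -0.53 on probe 1 (adjusted p = 0.0248) and -0.63 on probe 2 (adjusted p = 0.0194).

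Mycbp probe 1 had the widest gap between these groups among the 12 probes, with a log2 change of -0.94 (SE 0.10, limma adjusted p = 0.00621), while probe 2 had 0.21 and was not called (adjusted p = 0.136). Mxd1 probe 2 had 0.33 and was not called (adjusted p = 0.0657). Without the block 1 of the 12 probes was called, where 997 of all tested probes were called in place of 3381. All calls of the 12 were lost without either sponge array. Those of Myc and Mxd3 were also lost without control replicate 1, control replicate 2 or miR-26a replicate 2. Those of Mxd3 and Mxd4 probe 1 were lost without miR-26a replicate 1, the only alternative in which Mxd1 probe 2 was called. In each of these fits a group held 1 array, and fewer of all tested probes were called. Over the 14 alternatives the change was 0.36 to 0.55 for Myc and 0.31 to 0.38 for Mxd3. With normexp the change of Mycbp probe 1 was -0.63.

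Myc itself varied between experiments as well as between groups, and the probes that followed it most closely were sought among 14774 other tested probes with a gene name. The highest Pearson correlations over the 6 arrays, given as a description, were those of Cd3eap (0.999), Ifrd2 (0.998) and a probe of the spermidine synthase gene Srm (0.998). Cd3eap had log2 signals of 9.41 and 9.03 in control, 9.91 and 9.54 in miR-26a and 9.58 and 9.05 in sponge cells, the same order of arrays as Myc. The 6 arrays share experiment and group, so the correlation is not one over independent points.

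Genes that MYC is known to activate mostly had higher signals with miR-26a. A list of 62 such genes was named from general knowledge with earlier results of these data known, so its counts are only a description. All were tested with their brightest probe. Between miR-26a and control 13 were called higher and none lower, that is 21.0% of the list against 4.5% of all tested probes called higher. At an unadjusted p under 0.05, 35 were higher (14.3% of all tested probes were) and 1 was lower, the latter being Shmt2 with a log2 change of -0.25 (limma adjusted p = 0.0774). The change was positive for 59 of the 62 (95.2%, against 52.7% of all tested probes) and for 54 in both experiments. The median log2 change was 0.242, with 0.244 in experiment 1 and 0.222 in experiment 2. None of the 62 was called without the block, and none was called without control replicate 1 or without control replicate 2, where 16 and 26 were at an unadjusted p under 0.05 and 58 changes were positive in either case.

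As measured without normexp, the 3 largest rises were those of Hk2, the hexokinase of growing cells, with 0.93 (SE 0.18, limma adjusted p = 0.0351), the nucleoside transporter gene Slc29a2 with 0.75 (SE 0.13, adjusted p = 0.0271) and Cad, the first enzyme of pyrimidine synthesis, with 0.75 (SE 0.12, adjusted p = 0.0203). With normexp background correction the changes were 0.74 for Hk2, 0.37 for Slc29a2 and 0.37 for Cad, against 0.60 for Polr1b and 0.61 for Srm, so the order of sizes depends on that correction. The log2 signal of Hk2 went from 7.65 ± 0.33 to 8.58 ± 0.21 (SD, n = 2 each). That of Cad went from 5.49 ± 0.07 to 6.24 ± 0.10 and that of Slc29a2 from 5.55 ± 0.52 to 6.30 ± 0.39 (SD, n = 2 each). In control cells the mean signals of Cad and Slc29a2 thus lay below the minimum of 50 asked of tested probes. Both needed miR-26a arrays, where they were higher, to exceed it on 4 arrays. Their calls, which are among the 13, therefore depend on the filter, and the sizes of their changes are uncertain. The other 10 called genes had log2 changes of 0.32 to 0.66, and among them the RNA polymerase I subunit gene Polr1b, the ribosome biogenesis gene Pes1 and Srm take part in ribosome and polyamine production.

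**Figure D3:**
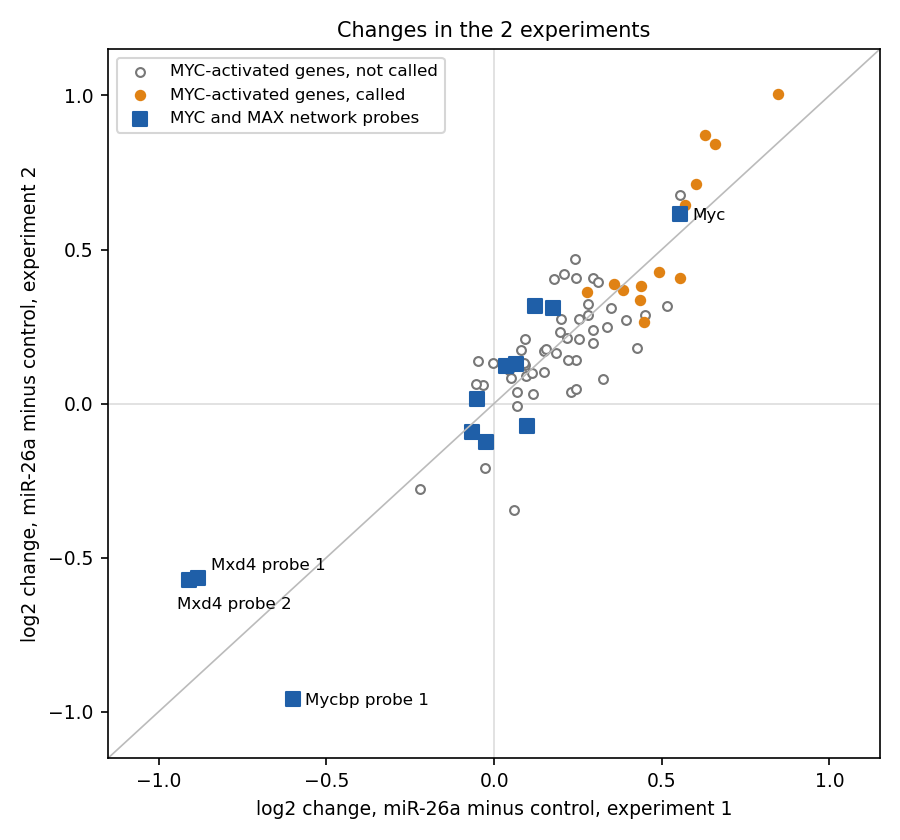
Log2 change from control to miR-26a in experiment 1 (horizontal axis) and experiment 2 (vertical axis) for the 12 network probes (blue squares) and the 62 MYC-activated genes (circles, filled where called). Myc lies at 0.55 and 0.61 among the called MYC-activated genes at the upper right, and Mxd4 and Mycbp probe 1 lie at the lower left, with Mxd4 lower in experiment 1 and Mycbp in experiment 2.

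Of the promoters of this list, 65 from 56 genes matched the RefSeq table, and 27.7% of them held CACGTG, against 7.15% of all promoters. Among the 13 promoters matched for the called genes 4 held it (30.8%), near the share of the whole list. Of these 4, those of Pes1 and Ipo4 are shown as examples (GRCm38.p6, CACGTG in capitals, Pes1 at chr11:3963965-3963994 on the plus strand, Ipo4 at chr14:55635653-55635682 on the minus strand).
Pes1: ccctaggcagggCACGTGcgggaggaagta
Ipo4: tgtcggagtctcCACGTGccgatcctcccc
A match is a description of the letters and shows no binding.

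Genes that MYC is known to repress gave fewer values, since 8 of 12 were tested. Between miR-26a and control 1 was called, Ndrg1, whose log2 signal fell by 0.95 (SE 0.08, limma adjusted p = 0.00547) and had a change of -0.52 with normexp. This is 12.5% of the 8, near the 9.64% of all tested probes that were called. The median log2 change of the 8 was -0.23, and 5 were negative. At an unadjusted p under 0.05 in limma 3 of the 8 were negative and 1, Cdkn1a, was positive. Of all tested probes 13% were negative and 14.3% positive at that limit. The cyclin-dependent kinase inhibitor genes Cdkn1a and Cdkn1b had log2 changes of 0.25 (0.15 without control replicate 2) and -0.29, both with an adjusted p of 0.121. Without control replicate 1 no gene of this list was called (adjusted p of Ndrg1 0.0646), and 2 were at an unadjusted p under 0.05.

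**Figure D4:**
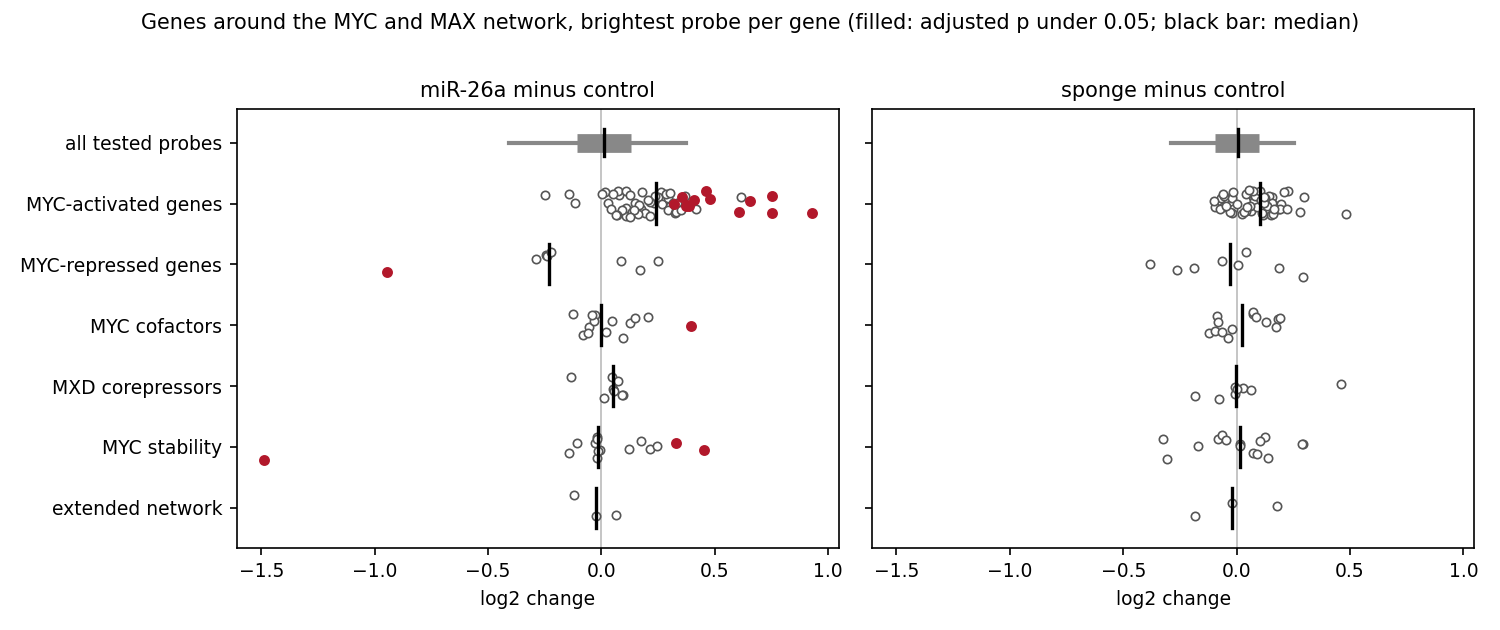
Log2 change (horizontal axis) of the genes of 6 lists around the MYC and MAX network (vertical axis) for miR-26a against control (left) and sponge against control (right). Filled points have a limma adjusted p under 0.05, short black bars are medians, and the grey bar of all tested probes spans the 5th to 95th percentile (thin) and the quartiles (thick). The MYC-activated genes have their median at 0.242 with miR-26a and 0.102 with the sponge.

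The proteins that set the life span of MYC included the single largest change of these lists. Of 15 tested genes 3 were called between miR-26a and control (20%, against 9.64% of all tested probes). Skp2, an F-box protein of a ubiquitin ligase that acts on MYC and on the cell cycle inhibitor p27, fell by 1.49 (SE 0.09, limma adjusted p = 0.00317), from a log2 signal of 11.35 ± 0.04 to 9.87 ± 0.09 (SD, n = 2 each). Fbxw7, the F-box protein that marks phosphorylated MYC for degradation, rose by 0.45 (adjusted p = 0.0216), and Usp36, a nucleolar deubiquitinase that acts on MYC, by 0.33 (adjusted p = 0.0406). Fbxw7 and Usp36 were not called without the block (limma adjusted p = 0.0789 and 0.427) or without either control array. Fbxw7 was also not called without miR-26a replicate 1, and Usp36 in none of the fits that left out an array. Skp2 was called in each of these fits. The median log2 change of the 15 genes was -0.017.

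Among 14 tested cofactors of MYC only the acetyltransferase gene Kat2a was called, with a rise of 0.39 (SE 0.08, limma adjusted p = 0.0435), which is 7.14% of the list against 9.64% of all tested probes. The median of the 14 was -0.003. Kat2a was not called in 10 of 14 alternatives, among them every fit without an array and the 75th percentile scaling (adjusted p = 0.0512). None of the 8 corepressor genes that MXD proteins use, Sin3a and Hdac1 among them, was called or reached an unadjusted p under 0.05 in limma, with log2 changes of -0.13 to 0.10. Of the 4 genes of the MLX branch and Mycl, 3 were tested and none was called or at an unadjusted p under 0.05.

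Between sponge and control no gene of these 6 lists was called in limma. Of the 62 MYC-activated genes 7 were higher and none was lower at an unadjusted p under 0.05, against 7.38% and 8.72% of all tested probes. The median log2 change was 0.102 against 0.005 for all tested probes, and 47 (75.8%) were positive against 51.4% of all. The experiments had medians of 0.152 and 0.032, experiment 1 first. Scaling each array to its 75th percentile made 56 of the 62 positive, with a median of all probes of 0.03. For the 8 MYC-repressed genes the median log2 change was -0.028.

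Between miR-26a and sponge, 13 of the 62 MYC-activated genes were called, all higher with miR-26a, against 8.28% of all tested probes called higher. The 3 largest were Slc29a2 with a log2 change of 0.68 (limma adjusted p = 0.0254), the ribosome assembly gene Rrp12 with 0.66 (adjusted p = 0.0355) and Cad with 0.58 (adjusted p = 0.0280). In sponge cells Slc29a2 and Cad had log2 signals of 5.62 ± 0.76 and 5.65 ± 0.21 (SD, n = 2 each), near the minimum asked of tested probes. As both needed miR-26a arrays to pass that filter, these calls depend on it too. With normexp the change was 0.32 for Slc29a2 and 0.29 for Cad, and without sponge replicate 2 it was 0.40 for Rrp12. None of the 62 was called without the block, where 365 of all tested probes were called higher in place of 1669. Most or all of the calls were lost without either sponge array or either control array, where fewer of all tested probes were called as well. Of the genes for the life span of MYC 4 of 15 tested were called (26.7%), and of the MYC-repressed genes 2 of 8 (25%). Of the corepressors 1 of 8 was called (12.5%) and of the cofactors 1 of 14 (7.14%). Of all tested probes 16.8% were called. In these lists Skp2 was lower by a log2 change of -1.78, Ndrg1 by -1.24 (-0.78 with normexp) and the SIN3 complex gene Sap30 by -0.38. Higher with miR-26a were Fbxw7 (0.53), the ubiquitin ligase gene Stub1 (0.55), the histone methylation cofactor gene Wdr5 (0.29) and Gadd45b (0.55), the last from the MYC-repressed list. The Wdr5 call was lost in 11 of 14 alternatives, among them no block (adjusted p = 0.116), the authors' values (0.0505) and each array left out (0.0820 to 0.179). That of Sap30 was lost in 7 of 14, with no block (0.206), with no filter (0.251) and without any single array other than miR-26a replicate 2 (0.0606 to 0.143).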

How the data were processed

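The authors deposited for each of 6 single-colour Agilent mouse arrays of 1 slide the scanner output (Feature Extraction, version 10.7.1.1 per the labels and 10.7.3.1 per the file headers), which holds for each spot its mean intensity and a processed intensity after background subtraction, and a table of quantile-normalized intensity on a linear scale. Positions and gene names are those of the array design (mm9), which gives no exon or UTR for a probe.

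Here processed signals of non-control spots were quantile-normalized and put on the log2 scale, and the spots of each probe were averaged, without spots flagged as outliers unless all were. A probe was tested if its signal exceeded 50 on 4 or more of the 6 arrays and was well above background on any of them, which left 20168. limma (3.58.1, R 4.3.3) took all 6 arrays in a single fit, blocked by experiment, with empirical Bayes moderation and Benjamini-Hochberg adjustment over all tested probes. The number of arrays limits the precision. Replicate numbers of the labels were taken as the experiment, because the methods normalize to the control of each experiment. Same-numbered arrays deviated together from their group means (correlations over the tested probes of 0.379, 0.588 and 0.454). Control titles refer to other records, so these arrays may have been deposited before, while all 6 lie on the same slide.

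The network's members and the gene lists were chosen with earlier results of these data known. Named are all members, and of each list all called genes where 6 or fewer were called in a contrast, otherwise the 3 largest changes in each direction, and the 3 probes that correlated best with Myc. Polr1b, Pes1, Ipo4, Shmt2, Cdkn1a, Cdkn1b, Sin3a and Hdac1 were named outside this rule after their values were seen. A gene that the rule gives is not reported here. Simulated data served to check the fit. Alternatives were no block, 75th percentile scaling, normexp with an offset of 50, the authors' table, 3 other filters, outlier spots kept, averaging the probes of a gene and leaving out each array.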

Additional observations from a re-analysis of the deposited data

How the results depend on the processing

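Of the 12 network probes 4 were called between miR-26a and control and 5 between miR-26a and sponge. The numbers were 0 and 0 with no filter (55681 probes in the fit) and 0 and 1 with no replicate block. They ranged from 0 to 4 for both contrasts when each array was left out in turn. A group then held 1 array, which was assumed to vary like the other groups. For both contrasts fewer of all tested probes were called in these fits as well. The numbers of network probes called were the same with the 75th percentile scaling, normexp, the authors' values, the other 2 filters and outlier spots kept. Between sponge and control the count was 0 in all of them. Without this pairing of arrays by experiment as a block, 311 probes in all were called between miR-26a and control in place of 1944, and 997 in place of 3381 between miR-26a and sponge, while 2 were called between sponge and control with and without it. Of the 62 MYC-activated genes 13 were called between miR-26a and control (21%, against 9.64% of all tested probes), 0 with no filter and 0 with no replicate block. With normexp 22 were called, where 2295 of all tested probes were called in place of 1944. Fewer than 13 were called when any array was left out. Of the 8 tested MYC-repressed genes 1 was called (12.5%, against 9.64% of all tested probes), with and without the block, and 0 with no filter. That call was lost without control replicate 1. Between miR-26a and sponge 2 of the 8 tested MYC-repressed genes were called (25%, against 16.8% of all tested probes), 1 higher and 1 lower. With normexp 5 were called, 2 higher and 3 lower, where 3711 of all tested probes were called in place of 3381. With no filter 0 were called, and the number varied when an array was left out. The MYC-activated genes called were 13 of 62 (21%), and 8 with the 75th percentile scaling. The changes of the called list genes named for these 2 contrasts with miR-26a kept their sign in all 14 alternatives.

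The log2 changes of the called probes kept their sign in all 14 alternatives: 0.52 to 0.65 for Myc, -0.88 to -0.57 for Mxd4 probe 1 and -0.93 to -0.52 for Mycbp probe 1 between miR-26a and control. The changes that took another sign were of probes that were not called. With an array left out, the change between miR-26a and control ranged from -0.00509 to 0.162 for Mga, from -0.0631 to 0.0271 for Mxd1 probe 1 (0.0167 with the 75th percentile scaling) and from -0.0857 to 0.113 for Mycbp probe 2, where leaving out control replicate 1 or miR-26a replicate 1 (-0.0146) turned the sign. Between miR-26a and sponge it ranged from -0.201 to 0.00083 for Mga and from -0.0144 to 0.107 for Mycn, and between sponge and control from -0.288 to 0.0642 for Mxd4 probe 2. The cause was not tested, other than that more probes or fewer arrays enter these fits by construction.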
